A study of Mus musculus with 2 samples.

Results

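Rab genes encode small GTPases that label the membranes of the secretory and endocytic pathways. The 59 genes described here are the protein-coding genes of the deposited gene tables whose symbol is Rab, a number and at most 1 letter from a to d, out of 21474 protein-coding genes and 43346 genes in all. A Rab protein is switched on when an exchange factor loads it with GTP and off when a GTPase-activating protein triggers hydrolysis. In its active form it recruits effectors such as motors and tethers, and a GDP dissociation inhibitor returns the inactive form to the cytosol. Neurons depend on Rabs for synaptic vesicle release, for endosomal sorting over long processes and for the outgrowth of axons and dendrites.

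The RNA came from the central nervous system of strain C57BL/6J mouse embryos at day 18 of development. A total of 2 polyadenylated RNA libraries, biological replicates 1 and 2, were made from separate biosamples of mixed-sex littermates and read as strand-specific pairs. The labels do not say how many embryos each biosample held. Both libraries form 1 group without treatment, so the data give levels at 1 age and the difference between 2 libraries, with no contrast between conditions and no test.

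Genes took 93979836 expected counts in replicate 1 and 137012773 in replicate 2. All 9 neuronal markers were detected in both libraries, with a summed level of 5119 and 4759 TPM. TPM is a level corrected for transcript length and library size. Several lists of markers of other tissue differed between the libraries. The 8 skeletal muscle genes summed to 21.2 and 575 TPM, and all 8 were past 2-fold higher in replicate 2. The 7 cartilage and bone genes summed to 22.2 and 162 TPM, and the 8 genes of epidermis and oral epithelium to 102 and 20.7 TPM. Sums for choroid plexus were 452 and 1434 TPM, for meninges and fibroblasts 596 and 1016 TPM, with Dcn in the other direction at 52.2 and 40.1, and for sensory ganglia 9.06 and 55.7 TPM. Platelet markers summed to 238 and 50.1 TPM, of which Ppbp alone gave 184 and 0.38, and the other 5 summed to 54.0 and 49.7 TPM. Red blood cell markers, at 1758 and 1425 TPM, had none past 2-fold among those at a mean TPM of 1. Of 5 pituitary markers only Pomc reached that level, at 2.91 and 2.67 TPM. Below it, Cga had 0 and 34 counts and Tshb 2 and 15, both past 2-fold higher in replicate 2. Gh and Prl were at 0 in both libraries. Radial glia and astrocytes, at 1944 and 2149 TPM, the oligodendrocyte lineage, at 183 and 201 TPM, microglia, at 59.5 and 55.7 TPM, and endothelium, at 144 and 141 TPM, had no marker past 2-fold. In bulk RNA, fewer cells of a type and less RNA per cell cannot be told apart.

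A Rab protein is held in membranes by prenyl groups on cysteines at its end, so the cysteine codons before the stop codon are shown for 4 members that stand for the kinds of ending found. The capitals mark cysteine codons within the last 30 coding bases, stop codon included, of the longest complete coding sequence of each gene, taken from GENCODE M21.
Rab3a: gcgccacctcatcaggatTGTgccTGCtga
Rab1a: gtcaagcagtcaggtggaggcTGCTGCtaa
Rab11b: aacaagctgcagTGCTGCcagagcctgtga
Rab8a: accagcttcttccggTGCagtctcctgtga

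The ending of Rab3a, with 1 other codon between the final cysteine codons, was found in 20 of 59 members. These 20 held 38.5% of the summed Rab TPM in replicate 1 and 37.4% in replicate 2. Such shares count all transcripts of a gene, not only the one that gave the ending. A further 15 members ended in adjacent cysteine codons directly before the stop codon, as in Rab1a, and held 24.5% and 24.8%. In 15 members, among them Rab11b and Rab5c, adjacent cysteine codons stood within the last 5 codons but not at the end. These genes held 29.96% and 30.35%. Several transcripts that gave the ending were minor. The Rab1a transcript shown above held 0.09% and 0.15% of its gene's TPM, that of Rab5c 3.37% and 3.97%, and that of Rab26 was at 0 TPM in both libraries. The Rab11b transcript that gave the ending held only 4.87% and 5.03% of its gene's TPM, and that of Rab11a 34.6% and 32.0%. Another 8 members had 1 cysteine codon, or 2 apart, within the last 5 codons. They were Rab8a, Rab8b, Rab13, Rab23, Rab28, Rab38, Rab40b and Rab40c, with 5.33% and 5.52% of the summed level. The 1 coding sequence read for Rab18, of 194 codons in GENCODE M21, had none there. Any other Rab18 transcript was not read. The nucleotide-binding loop was searched in the coding sequences as codons for glycine, any 4 residues, glycine, lysine and then serine or threonine. It was found in 57 of 59 members and missed in Rab40b and Rab40c.

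A gene was called detected where each library gave it at least 1 TPM, and 51 of 59 Rab genes (86.4%) were, beside 62.8% of the other 21415 protein-coding genes. The median over the detected members was 46.8 TPM in replicate 1 and 45.8 TPM in replicate 2, against 20.1 and 19.7 TPM over the other detected protein-coding genes. Of the detected members, 12 stood at 100 TPM or more in both libraries and 43 at 10 TPM or more. For scale, 93.2% of protein-coding genes lay below the mean level of Rab3b, 102 TPM. For Rab13, with a mean of 10.2 TPM, it was 57.2%. All Rab genes together summed to 4332 and 4146 TPM. The highest 5 members, Rab3a, Rab11b, Rab11a, Rab7 and Rab2a, made up 40.5% and 39.9% of that sum. Mean levels of detected members spanned 461-fold, from Rab3a to Rab39.

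**Figure D1:**
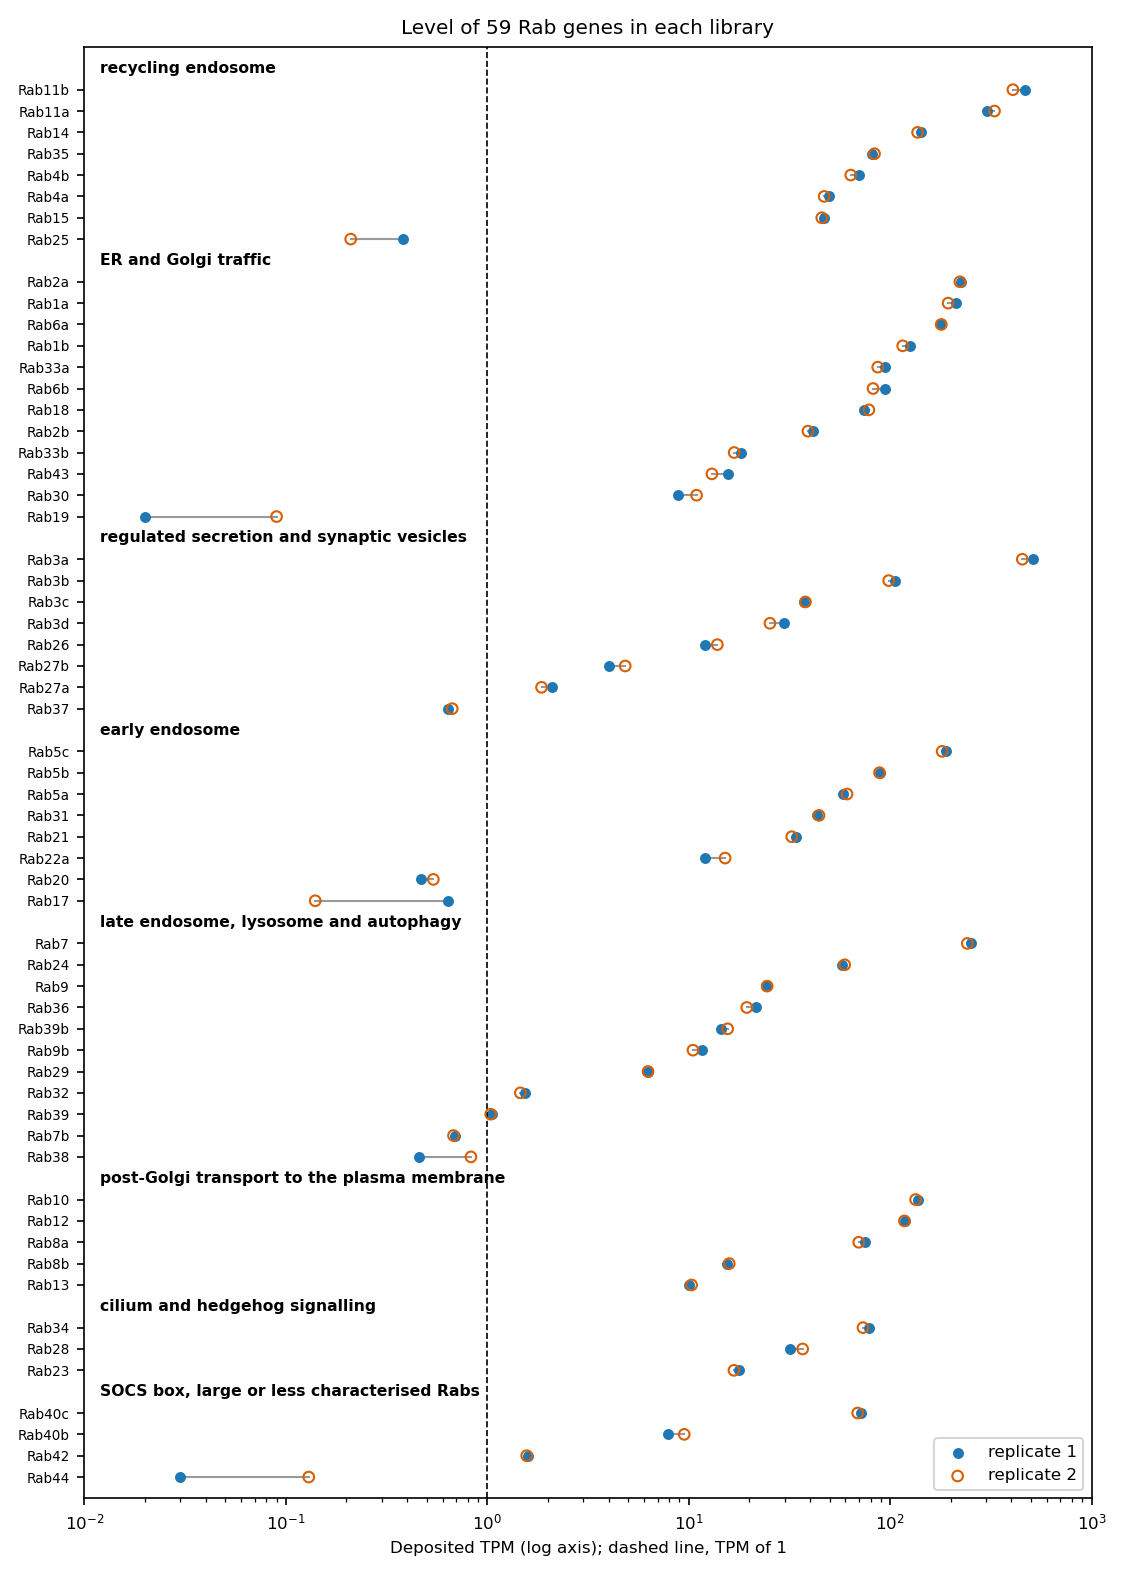
Deposited TPM (log axis) of 59 Rab genes grouped by role, with a filled point for replicate 1, an open circle for replicate 2 and a dashed line at a TPM of 1. The 51 detected members lie right of the line with nearly coinciding points, while Rab17, Rab25, Rab44 and Rab19 lie left of it with points far apart.

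In the order of mean TPM, the library values of 35 of 58 neighbouring members did not overlap, and those of 23 did. Rab3a and Rab11b, ranked highest, overlapped. In each of the 9 steps from Rab11b down to Rab1b the library values stood apart. Below them, most neighbours between Rab33a and Rab24 overlapped. The coefficient of variation of TPM over the 2 libraries had a median of 3.99% across detected members and reached at most 16.0%, in Rab22a. In expected counts scaled to library size, which are not divided by length, Rab22a had a ratio of replicate 2 to replicate 1 of 0.97.

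Rabs of regulated secretion were led by Rab3a (ENSMUSG00000031840, GRCm38 chromosome 8, 70754679 to 70758677, plus strand), which acts at synaptic vesicles before their fusion. It stood at 510.4 TPM in replicate 1 and 453 TPM in replicate 2, or 482 ± 40.7 TPM (mean ± SD, n = 2), above 99.0% of protein-coding genes. Its paralogs were lower in both libraries. Rab3b stood at 106 and 98.3 TPM, Rab3c at 37.5 and 38.0 TPM, and Rab3d at 29.6 and 25.3 TPM. Rab3a held 82.8% and 82.2% of the combined TPM of Rab3a and Rab3b. Rab27b and Rab27a, which dock secretory granules and lysosome-related organelles, were at 4.03 and 4.84 TPM and at 2.09 and 1.86 TPM. Rab37, a Rab of secretory granules, was the lowest of the group, at 0.64 and 0.67 TPM.

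Rabs of the recycling endosome had the largest summed level of all role groups, 1158 and 1113 TPM over 8 members, 7 of them detected. Over protein-coding transcripts alone, the sums were 929 and 898 TPM, below the 1067 and 1022 TPM of traffic between endoplasmic reticulum and Golgi. Rab11b (ENSMUSG00000077450, chromosome 17, 33742484 to 33760530, minus strand) stood at 464 and 407 TPM. Rab11a (ENSMUSG00000004771, chromosome 9, 64715299 to 64737758, minus strand), which like Rab11b drives return of cargo to the surface, stood at 303 and 329 TPM. The order of these paralogs was the same in both libraries, while their difference narrowed from a log2 ratio of 0.61 to 0.30. Rab14, which moves between Golgi and endosomes, was at 143 and 137 TPM. Rab35, a Rab of fast recycling and neurite outgrowth, was at 81.3 and 83.6 TPM. The lowest, Rab25, is an epithelial relative of Rab11 and stood at 0.38 and 0.21 TPM.

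Rabs of traffic between endoplasmic reticulum and Golgi came next, with 1086 and 1038 TPM over 12 members, of which 11 were detected. Rab2a, a Rab of the early secretory pathway, stood at 224 and 222 TPM. Rab1a, which carries vesicles from the endoplasmic reticulum to the Golgi, stood at 213 and 194 TPM, and its paralog Rab1b at 126 and 115 TPM. Rab6a, a Golgi Rab of retrograde transport and secretory carriers, stood at 177 and 179 TPM. The paralog Rab6b, known from brain, stood at 94.0 and 82.2 TPM. Rab19 was the lowest, at 0.02 and 0.09 TPM.

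Among early endosome Rabs the Rab5 genes, which drive endosome fusion, led in the order Rab5c, Rab5b and Rab5a in both libraries. Rab5c stood at 189 and 181 TPM, Rab5b at 89.5 and 88.6 TPM and Rab5a at 58.4 and 61.1 TPM. Rab31, a relative of Rab22a, followed at 43.2 and 44.3 TPM. Rab20 at 0.47 and 0.54 TPM and Rab17 at 0.64 and 0.14 TPM were not detected.

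Of the late endosome, lysosome and autophagy Rabs, Rab7, which directs late endosomes to lysosomes, held most of the level at 252 and 241 TPM. Rab24, a Rab linked to autophagy, followed at 57.7 and 59.5 TPM. Rab9, of transport from late endosomes to the Golgi, stood at 24.2 and 24.5 TPM, and Rab36 at 21.6 and 19.4 TPM. Rab38, a Rab of melanosome biogenesis, was the lowest by the mean at 0.46 and 0.83 TPM. Rab29, Rab32 and Rab39 were detected between 1.04 and 6.29 TPM, and Rab7b at 0.69 and 0.68 TPM, below Rab38 in replicate 2, was not.

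All 5 Rabs that were assigned here to transport from the Golgi to the plasma membrane, Rab12 among them, were detected. Rab10, a Rab of polarised membrane delivery, stood at 137 and 134 TPM, Rab12 at 119 and 118 TPM, Rab8a at 75.3 and 69.8 TPM, Rab8b at 15.5 and 15.9 TPM and Rab13 at 10.1 and 10.3 TPM. Of the Rabs tied to the cilium and hedgehog signalling, Rab34, which acts in early cilium formation, stood at 78.6 and 73.3 TPM. Rab28 stood at 31.8 and 36.8 TPM. Rab23, a negative regulator of hedgehog signalling, stood at 17.8 and 16.8 TPM.

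In the remaining group Rab40c, whose SOCS box links it to ubiquitin ligases, stood at 72.0 and 69.0 TPM. Its paralog Rab40b stood at 7.88 and 9.50 TPM, and Rab42 at 1.59 and 1.57 TPM. Rab44, an unusually large Rab, was at 0.03 and 0.13 TPM.

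Subfamilies were compared as the log2 ratio of TPM plus 1 between the highest member and each other member. All 22 ratios in 18 subfamilies had the same direction in both libraries, which the choice of the highest member by its mean favours. In 15 of them the ratio was at least 1 in both libraries. With mm9 RPKM, the ratio before taking log2 moved by over 1.5 times in 8 of 22. The same 1 was added to RPKM, whose values were lower than TPM, so unit and weight of the added 1 changed together. The widest were Rab11b to Rab25, at 8.40 in both libraries, and Rab7 to Rab7b, at 7.23 and 7.17. Between Rab3a and its paralogs the ratio was 2.25 and 2.19 to Rab3b, 3.73 and 3.54 to Rab3c, and 4.06 and 4.11 to Rab3d.

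Intermediate ratios were 2.41 and 2.48 for Rab2a to Rab2b, 2.31 and 2.30 for Rab33a to Rab33b, 2.99 and 3.15 for Rab26 to Rab37, 2.92 and 3.02 for Rab39b to Rab39, and 3.04 and 2.74 for Rab40c to Rab40b. Rab34 to Rab36 gave 1.82 and 1.86, Rab31 to Rab22a 1.76 and 1.49, Rab5c to Rab5a 1.68 and 1.55, Rab5c to Rab5b 1.07 and 1.02, and Rab9 to Rab9b 0.99 and 1.15. Closer were Rab6a to Rab6b at 0.91 and 1.12, Rab1a to Rab1b at 0.75 and 0.74, Rab27b to Rab27a at 0.70 and 1.03, and Rab32 to Rab38 at 0.80 and 0.43. Rab4b to Rab4a was at 0.48 and 0.43. The widest spread between libraries was that of Rab32 to Rab38, whose members stood between 0.46 and 1.54 TPM.

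The coding sequences of subfamily members shared between 54.7% and 78.5% of aligned bases over 27 pairs, highest for Rab6a with Rab6b and lowest for Rab26 with Rab37. In 51 of 59 members no stretch as long as 1 read, cut from GENCODE M21 sequences, recurred in another gene of the tables. The exceptions were Rab4b, with 49.2% of its stretches shared, mostly with the overlapping gene model Gm21983, then Rab5b with 8.08% and Rab11b with 7.10%, both with pseudogenes or predicted genes. Rab8b, Rab26, Rab27a, Rab3c and Rab33b shared under 4% of theirs. The level of Rab4b is therefore uncertain. The deposited levels used GENCODE M4 models, whose sequences can differ and were not searched.

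**Figure D2:**
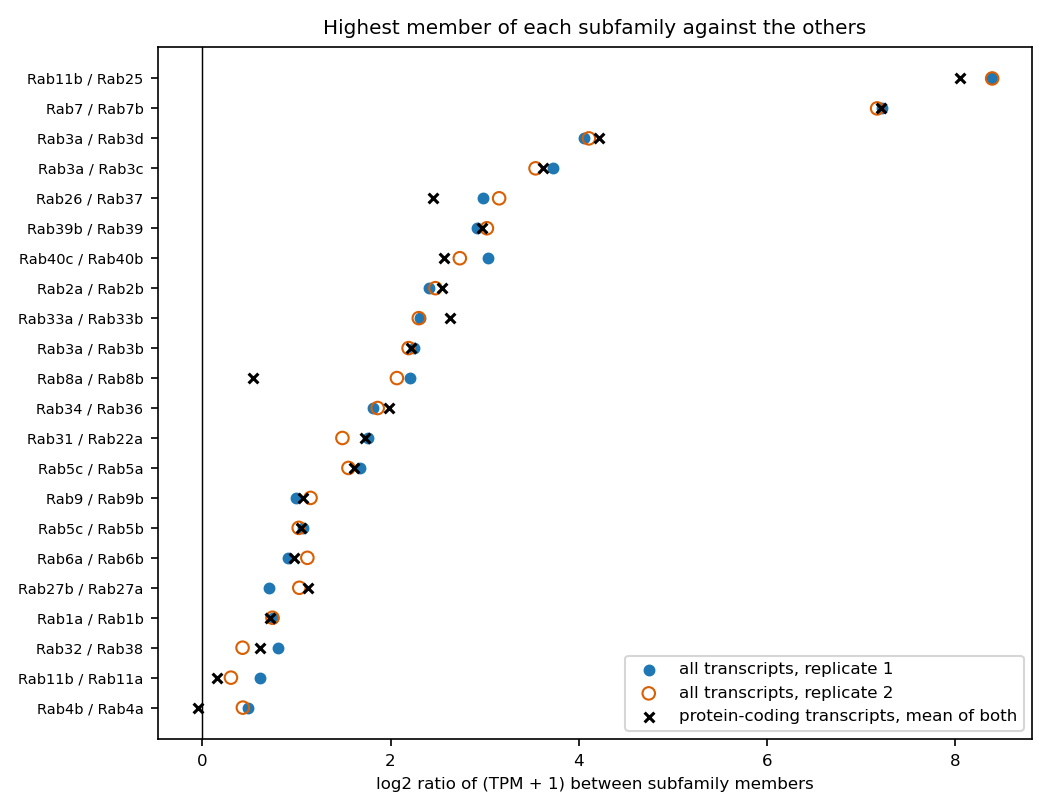
Log2 ratio of TPM plus 1 between the highest member of a subfamily and each other member, for all transcripts in replicate 1 (filled), in replicate 2 (open) and for protein-coding transcripts alone as the mean of both libraries (cross). The cross of Rab8a to Rab8b lies at 0.54, far left of its points at 2.21 and 2.07, and that of Rab4b to Rab4a lies just below 0.

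Several of these levels rest on short transcript models. In 45 of 51 detected members the highest transcript held over 50% of the gene's TPM in both libraries, and 18 had 1 transcript only. The share of the highest transcript differed between the libraries by a median of 0.76 percentage points. The widest shift was in Rab22a, from 84.7% to 64.3%, while a model of 849 nt went from 6.38% to 29.8%. By expected counts, which are not divided by length, the highest transcript of Rab22a held 90.0% and 88.2% and the model of 849 nt 0.63% and 3.83%. Rab8a (ENSMUSG00000003037, chromosome 8, 72161200 to 72183904, plus strand) was the 1 detected member led by a transcript that is not protein-coding. A retained-intron model of 542 nt held 68.5% and 67.0% of its TPM, and the coding transcript 31.5% and 33.0%. By expected counts, which are not divided by length, the order was reversed, with 14.6% and 13.9% for the retained-intron model and 85.4% and 86.1% for the coding transcript. Counted over protein-coding transcripts alone, Rab8a stood at 23.7 and 23.0 TPM, beside 15.5 and 15.9 TPM for Rab8b. The log2 ratio between them was then 0.58 and 0.51.

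In Rab11a a model of 462 nt that encodes 153 codons held 41.6% and 43.9% of the TPM, and the model with the complete 216 codons 34.6% and 32.0%. The latter held 80.0% and 78.0% of the expected counts of Rab11a. In Rab11b a model of 193 codons held 66.6% and 66.5% of the TPM, a model annotated for nonsense-mediated decay 27.9% and 27.4%, and the model of 218 codons 4.87% and 5.03%. By expected counts these Rab11b models held 64.4% and 64.0%, 14.5% and 14.2%, and 20.7% and 21.2%, so the last 2 changed order. Over protein-coding transcripts Rab11b stood at 334 and 295 TPM and Rab11a at 273 and 292 TPM, a log2 ratio of 0.29 and 0.01. Rab4b to Rab4a changed direction, to -0.08 and -0.02. Restricting the levels to protein-coding transcripts was chosen after the shares were seen.

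Rab6a (ENSMUSG00000030704, chromosome 7, 100607410 to 100641268, plus strand) uses a pair of mutually exclusive coding exons of 106 nt, and both are shown because the data give the share of each. The first lies at chr7:100629666-100629771 and the second at chr7:100629838-100629943, both on the plus strand of GRCm38. The capitals mark the 30 positions at which they differ, and 71.7% of the bases are identical.
Rab6a first exon: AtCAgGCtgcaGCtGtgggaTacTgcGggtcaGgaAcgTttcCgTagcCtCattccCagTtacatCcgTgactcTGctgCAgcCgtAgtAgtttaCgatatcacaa
Rab6a second exon: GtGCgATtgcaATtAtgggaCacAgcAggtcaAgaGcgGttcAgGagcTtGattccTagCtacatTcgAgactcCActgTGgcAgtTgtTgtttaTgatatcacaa

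The deposited mm9 junction file gave 113 and 142 reads into the first exon and 107 and 165 reads out of it, in its replicates R1 and R2. These replicates are not tied to replicate 1 or 2 of the gene tables. For the second exon there were 2578 and 3821 reads in and 2371 and 3294 reads out. The second exon took 95.8% of these junction reads (exact Clopper-Pearson 95% interval 95.3 to 96.3), with 95.7% in R1 and 95.9% in R2. Only 7 reads joined both exons, and no junction skipped both. In the gene tables, the transcripts with the first exon stood at 14.1 and 14.0 TPM and the transcript with the second at 159 and 161 TPM, a share of 91.8% and 92.0% for the second. Junction reads and transcript TPM both put the second exon above 90% in both replicates.

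Of 37 members with an exon that could be measured at 20 junction reads, 5 (13.5%) had an exon included in 5% to 95% of reads, beside 47.2% of 10060 other protein-coding genes. Every exon measured in the 37 members had a skipping read, so well-covered members without any, such as Rab35, are not among them. The number of exons and the depth per gene were not matched. In 3 of the 5 the junctions on either side of the exon were within 3-fold of each other. Rab22a had a coding exon of 82 nt (chr2:173688147-173688228, plus strand) included at 88.6% (95% interval 85.9 to 91.0), with 87.4% in R1 and 89.5% in R2. Rab28 had a coding exon of 89 nt (chr5:41698390-41698478, minus strand) at 94.2% (92.0 to 95.9), with 91.6% in R1 and 95.6% in R2. Neither length is a multiple of 3. In Rab37 an exon of 111 nt was at 85.7%, from 26 reads and with an interval of 57.2 to 98.2. In Rab26 the junctions beside the exon were unbalanced, and the value of Rab6a came from the exon pair above. These intervals cover counting error only.

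**Figure D3:**
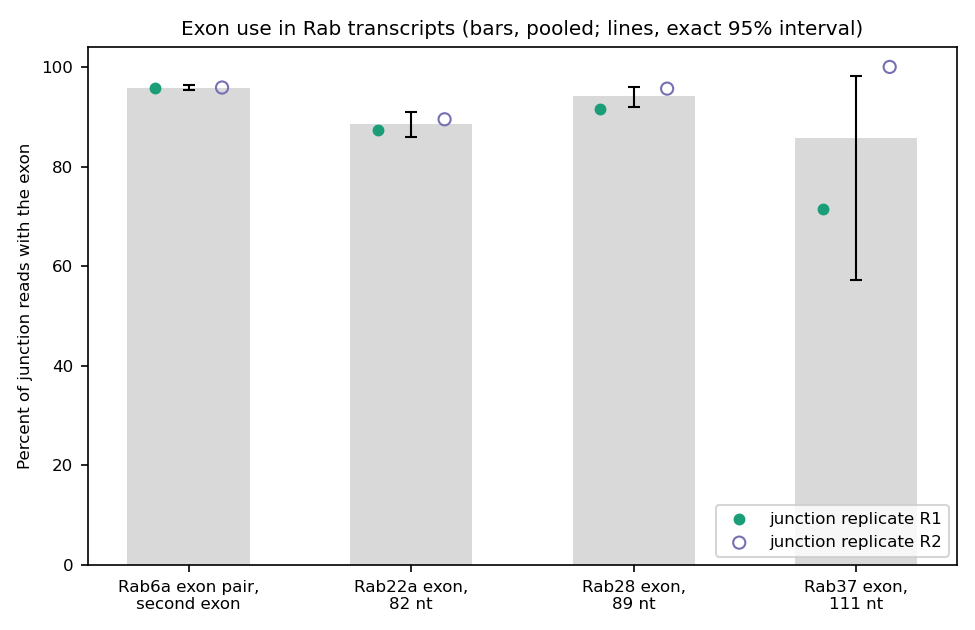
Percent of mm9 junction reads that contain the second exon of the Rab6a pair or the cassette exon of Rab22a, Rab28 and Rab37, with bars for pooled reads, exact 95% intervals as lines and points for R1 and R2. The Rab6a value of 95.8% has the narrowest interval and the Rab37 value, from 26 reads, the widest.

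Between the libraries, the levels of detected Rab genes differed little. The ratio of replicate 2 to replicate 1 was taken from expected counts scaled to library size by TMM, which equalises the libraries by their shared genes. None of the 51 members at a mean TPM of 1 or more was past 2-fold, beside 2.91% of 15281 genes at that level. Their log2 ratios ran from -0.23 in Rab36 to 0.25 in Rab40b. The median absolute log2 ratio was 0.06 over these members and 0.10 over all genes tested. Among genes whose mean level reached 10 TPM it was 0.06 for 43 members and 0.08 for 9592 genes. In direction, 18 members were higher in replicate 2 and 33 lower, with a median log2 ratio of -0.03 beside -0.01 over all genes tested. No ratio has a replicate check, since each side is 1 library.

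**Figure D4:**
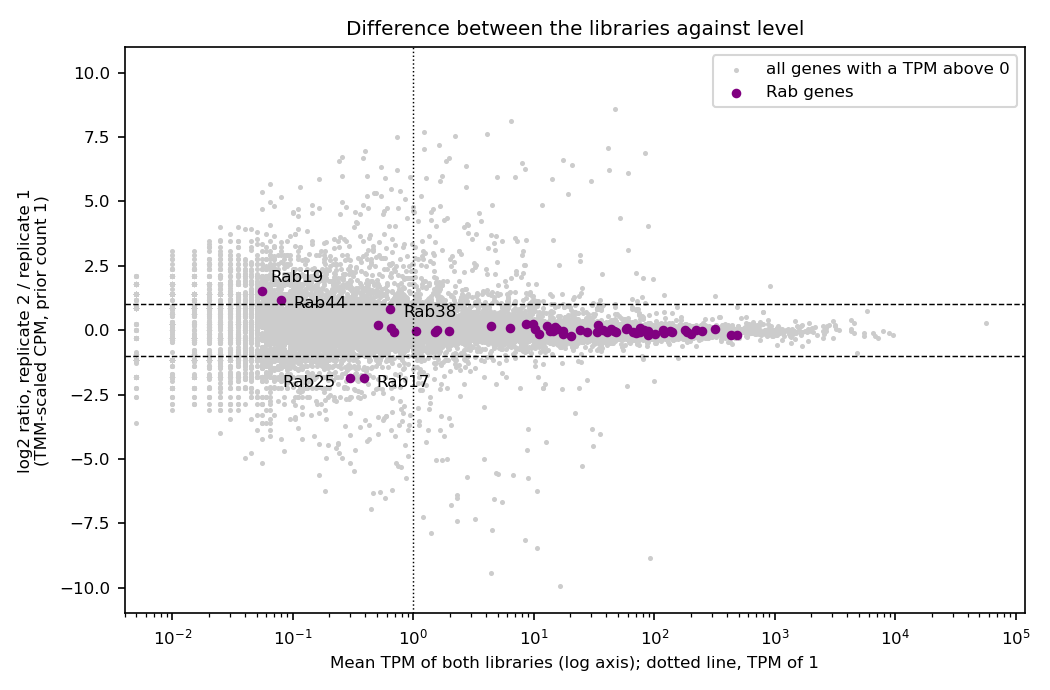
Log2 ratio of replicate 2 to replicate 1 against mean TPM (log axis), with all genes in grey, Rab genes in purple, dashed lines at 2-fold and a dotted line at a TPM of 1. The 51 Rab genes right of the dotted line lie between -0.23 and 0.25, and the members past 2-fold all lie left of it.

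With no filter on level, 4 of 59 members (6.78%) were past 2-fold, beside 15.1% of all genes with at least 1 count. All 4 were among the 8 members under a mean TPM of 1, where 33.6% of 10018 genes with a count were past 2-fold. Rab17 (ENSMUSG00000026304, chromosome 1, 90958133 to 90969661, minus strand), a Rab of epithelial polarity, had 36 counts in replicate 1 and 14 in replicate 2. Per total counts it was 3.75-fold higher in replicate 1, with a 95% interval of 1.97 to 7.52 from counting error. Rab25 had 19 and 7 counts and was 3.96-fold higher in replicate 1 (1.59 to 11.1). Beside them, the 8 markers of epidermis and oral epithelium included 5 past 2-fold lower in replicate 2 and none higher, with Ivl listed at 0 in replicate 2. Their part in the Rab17 and Rab25 values was not tested.

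Rab44 had 8 and 29 counts, a ratio of 2.49 in favour of replicate 2 (1.11 to 6.29). Rab19 had 2 and 11 counts, a ratio of 3.77 whose interval of 0.82 to 35.0 includes equal levels. Rab38 had 35 and 95 counts, a ratio of 1.86 (1.25 to 2.83). Of 6 melanocyte markers, Tyrp1 alone was past 2-fold higher in replicate 2, and Mlana was listed at 0 in both libraries. These 6 genes summed to 1.24 and 2.05 TPM. Of 8 markers of other leukocytes, 4 were past 2-fold higher in replicate 2 and 1 lower, with sums of 12.7 and 24.8 TPM and Cd3e listed at 0 in both. Whether either cell type bears on these low Rab values was not tested. Rab7b, Rab37 and Rab20 had between 35 and 136 counts per library and ratios of 0.98, 1.10 and 1.20, whose intervals include 1.

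A promoter window of 300 bases around the gene start was matched in the RefSeq table of GRCm38.p6 for 48 members. Detected members had a median of 23 CG dinucleotides (44 members), beside 21 over other detected protein-coding genes. The 4 undetected members matched, Rab17, Rab19, Rab20 and Rab25, had a median of 9. All 16269 matched protein-coding genes outside the Rab genes had a median of 14, but 10503 of them were detected. A median over other undetected genes alone was not computed, so the 4 have no like comparison. Of the 59 members, 4 lie on the X chromosome, Rab33a, Rab9, Rab39b and Rab9b, and all 4 were above 10 TPM in both libraries. Of all 59 members, 43 stood at 10 TPM or more in both.

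Genes whose products act on Rabs were mostly detected. All 8 genes found for GDP dissociation inhibitors, escort proteins and prenylation were detected. Rabac1, a prenylated Rab acceptor, stood at 245 and 251 TPM, Gdi2, an inhibitor that extracts inactive Rabs from membranes, at 108 and 109 TPM, and Chml, an escort protein for prenylation, was lowest at 3.95 and 4.61 TPM. None of the 8 was past 2-fold.

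Of 39 exchange factors, 37 were detected and none was past 2-fold. Sbf1 and Dennd5a, which carry DENN domains, stood at 133 and 116 TPM and at 100.7 and 97.1 TPM, and Madd, the exchange factor of Rab3, at 85.8 and 77.5 TPM. Dennd2d was the lowest at 0.52 and 0.56 TPM. Of 34 GTPase-activating proteins, 33 were detected and none was past 2-fold. Tbc1d14, Evi5l and Sgsm3, proteins with TBC domains, led by the mean at 93.8 and 86.1, 80.7 and 70.6, and 67.3 and 62.3 TPM, with Tbc1d16 at 68.0 and 60.7 TPM, and Tbc1d2 was lowest at 0.75 and 0.97 TPM. The median levels were 18.7 and 18.1 TPM over exchange factors and 28.6 and 28.0 TPM over GTPase-activating proteins, beside 33.9 and 36.8 TPM over all 59 Rab genes.

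Of 60 effectors, 51 were detected. Fscn1, an actin-bundling protein recruited by Rab35, led at 407 and 362 TPM, followed by Bicdl1 at 173 and 165 TPM and Zfyve27, which binds Rab11, at 112 and 105 TPM. Bicdl2 was lowest by the mean at 0.17 and 0.10 TPM, with Myo5c at 0.15 and 0.21 TPM. Mlph, which links Rab27a to a myosin on melanosomes, was under the level filter at 0.80 and 0.17 TPM and was the 1 effector past 2-fold, with 192 and 58 counts. Among 5 kinases and phosphatases of Rabs, Ppm1m led at 24.1 TPM in both libraries, followed by Ppm1h at 9.81 TPM in both and Lrrk1 at 2.21 and 2.81 TPM. Lrrk2, which phosphorylates several Rabs, was lowest by the mean at 1.99 and 2.12 TPM, with Ppm1j at 1.65 and 3.22 TPM. None of the 5 was past 2-fold. The 5 Rab-like genes were all detected with none past 2-fold, from Rabl2 at 91.5 and 95.2, Ift22 at 68.1 and 71.3 and Rabl6 at 64.3 and 64.5 TPM to Rabl3 at 5.89 and 5.14 TPM.

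**Figure D5:**
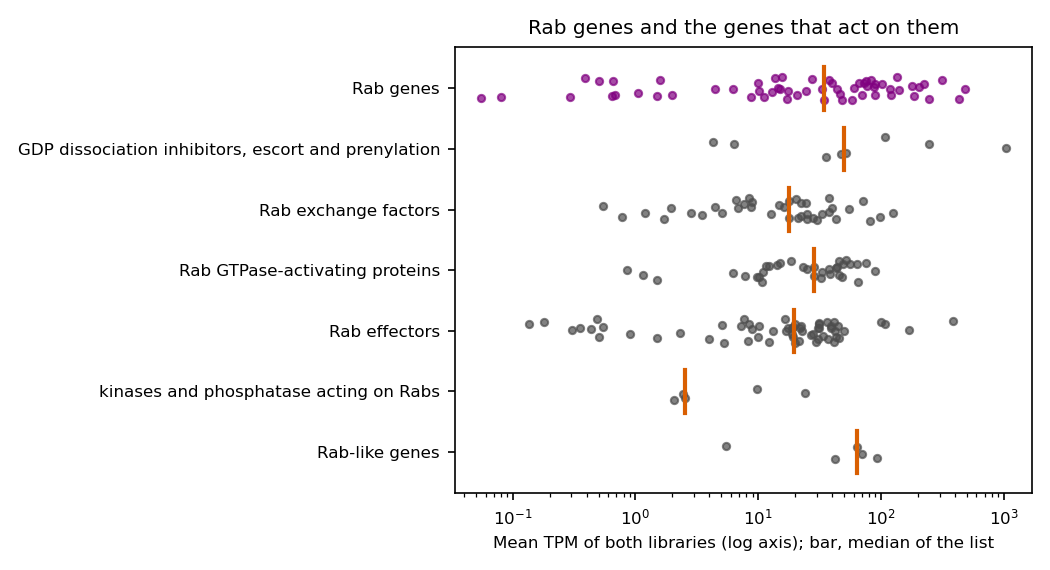
Mean TPM of both libraries (log axis) for the Rab genes and for each list of genes that act on them or resemble them, 1 point per gene with the list's median as a bar. The Rab genes reach from under 0.1 to over 100 TPM, and the kinases and phosphatases have the lowest median.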

How the data were processed

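For each library the authors deposited expected counts, TPM and FPKM of genes and of transcripts, on mm10 with GENCODE M4 per the read-me texts. The authors' mm9 files give RPKM per Ensembl gene and junction read counts for 2 replicates not tied to a library. For the aligner and the quantifier, names were not given in the sources used here. Entries other than genes (3.62% and 4.01% of expected counts) were left out. Symbols and positions came from GENCODE M21 on the same genome, and mm9 exons were matched to it by transcript and length. Ratios used edgeR 4.0.16 on rounded expected counts, with TMM and a prior count of 1, for genes at a mean TPM of 1. The ratio calculation was tested on simulated counts of well-counted genes, with counting error only. That test does not cover members with few counts or differences between biosamples. Of the Rab genes, 54 had whole expected counts, at the 2 decimals deposited, in both libraries. Exon inclusion is the share of the averaged inclusion junctions in their sum with skipping reads. R 4.3.3, Python 3.11.15, pandas 2.3.3, SciPy 1.17.1 and Biopython 1.88 were used. Intervals are exact (Clopper-Pearson, or conditional on the summed counts). A count of 3, the limit that a count of 0 allows, corresponds to 0.0319 and 0.0219 CPM. Alternatives covered thresholds, DESeq2 1.42.0 size factors, pseudocounts, FPKM, RPKM and leaving out each replicate.

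The members and gene lists were chosen with earlier results of these data known. Values in both libraries are given for the highest 4 and lowest members of each role group, members under a TPM of 1 or past 2-fold, every subfamily ratio, and the highest 3 and lowest genes of each list. Gdi3 of the lists was not found. The values of 1 list gene are not reported here. The Rab6a exon pair was chosen after its junction reads were seen.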

Additional observations from a re-analysis of the deposited data

How the results depend on the processing

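No paired analysis was possible because there is 1 group. The count of 51 detected members was 53 at a TPM of 0.5, 46 at a TPM of 5, 48 with FPKM and 44 with mm9 RPKM. No member at a mean TPM of 1 was past 2-fold under DESeq2 size factors, total counts, a prior count of 5 or TPM, and with no level filter 4 members were. The median level of detected members, 46.3 TPM, was 55.1 when TPM was rescaled over nuclear genes and 28.8 in FPKM. All 22 subfamily ratios kept their direction with a pseudocount of 0.1, with mm9 RPKM and without either replicate. Before taking log2, however, the ratio moved by over 1.5 times in 4 with that pseudocount, in 8 with mm9 RPKM and in 11 without length correction. In log2, Rab11b to Rab25, at a mean of 8.40, was 10.1 with the pseudocount and 5.24 with RPKM. Rab26 to Rab37 went from 3.07 to 0.99 with RPKM, and Rab3a to Rab3c from 3.64 to 0.85 without length correction. Ratios by RPKM and without length correction also had 1 added. By RPKM, Rab26 stood at 1.07 and 1.19 and Rab37 at 0.068 and 0.078, so the added 1 was not small beside them. Without length correction Rab9 to Rab9b turned to -0.44, and over protein-coding transcripts Rab4b to Rab4a turned to -0.0496; the protein-coding alternative was chosen after seeing the data. The cause was not tested. The highest transcript held over 50% in 49 members by expected counts, ranked by those counts, against 45 by TPM. The count of 5 members with an intermediate exon was 4 at 50 reads, 3 with balanced junctions, and from 3 to 6 when either replicate was left out. The Rab6a second exon share of 95.8% was 91.9% by transcript TPM, and 95.7% to 95.9% without either replicate. The members under a TPM of 1 rest on 2 to 136 counts each, so their ratios are imprecise.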
